A study of Mus musculus with 6 samples.

Results

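The clustered protocadherins are cadherin-like adhesion proteins whose genes stand side by side in 3 arrays, alpha, beta and gamma. In the alpha and gamma arrays each gene has its own large first exon, which encodes the extracellular and transmembrane parts, and is spliced to constant exons shared by the whole array, while the beta genes lack such constant exons. They are best known in neurons, where each cell uses a subset of the genes chosen through their promoters and the proteins bind like with like across cell contacts, and the C-type genes at the ends of the alpha and gamma arrays are less selectively used than the others. *Egr1* encodes a zinc finger transcription factor and lies on the same chromosome, mouse chromosome 18.

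The members were chosen by name, as all genes on chromosome 18 whose GENCODE symbol is that of a clustered alpha, beta or gamma protocadherin. There were 58 of them among the 47069 genes in the counts, with 14 in the alpha, 22 in the beta and 22 in the gamma cluster, the last made of 12 A-type, 7 B-type and 3 C-type genes. The family was put forward with results of the genotype comparison already known, so the differences between genotypes given here describe these mice and lend no support to anything.

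RNA was sequenced from the inguinal subcutaneous white adipose tissue (SC-WAT) of 3 *Egr1*+/+ and 3 *Egr1*-/- female mice aged 2 weeks, to compare fat with and without *Egr1*. Each library came from 1 mouse and no animals were pooled. The *Egr1*-/- allele is constitutive, with *LacZ* placed in the 5′ untranslated region of *Egr1* and a frameshift before the part that encodes the DNA-binding domain, so it acts in every cell type and at every age. Both genotypes were kept on the C57BL/6J background and came from crosses of heterozygous mice, and 1 *Egr1*+/+ and 1 *Egr1*-/- mouse were littermates. The paper reports fewer litters than mice and does not say which libraries came from the same litter.

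Between 29661984 and 42357981 reads per mouse were counted on genes, of which 50.0% to 66.3% were mitochondrial, which left 12572968 to 18449896 counts per mouse on the other genes. *Egr1* had 353, 241 and 711 counts in *Egr1*+/+ replicates 1 to 3 and 103, 84 and 57 in *Egr1*-/- replicates 1 to 3, so the genotypes did not overlap. The log2 fold change of *Egr1* was -2.19 (SE 0.299, edgeR quasi-likelihood test, Benjamini-Hochberg adjusted p = 0.0878), and this test called 3 of the 17667 genes tested. The adipocyte markers of the labelled tissue were present in every mouse, with a summed level of 8535 to 9612 CPM (counts relative to the size of the library, corrected for its composition) in *Egr1*+/+ and 7154 to 8448 CPM in *Egr1*-/- mice. In bulk tissue, fewer cells of a type and less RNA per cell cannot be told apart.

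On the GRCm38 build *Egr1* spans chr18:34859823-34864984 on the forward strand. The alpha cluster spans chr18:36930184-37187661, the beta cluster chr18:37264938-37524479 and the gamma cluster chr18:37661793-37841873, all on the same strand as *Egr1*. The first alpha gene begins 2.0652 Mb beyond the end of *Egr1*, the beta cluster 2.4 Mb and the gamma cluster 2.7968 Mb beyond it. Measured from start to start, the members lie 2.0704 Mb (*Pcdha1*) to 2.9597 Mb (*Pcdhgc5*) from *Egr1*. Genes so close to *Egr1* are mostly inherited together with its targeted or intact allele. Loss of *Egr1* and other differences in the linked stretch of chromosome cannot be told apart in this design.

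Shared exons and similar sequence limit what a count of 1 member can mean. The alpha genes share at least 2860 exon bases with each other, and the part of each gene's exons that no other gene on that strand uses ranged from 8.56% (*Pcdha4*) to 61.1% (*Pcdha11*). In the gamma cluster this share ranged from 33.2% (*Pcdhga4*) to 68.5% (*Pcdhgb5*), and in the beta cluster, where only *Pcdhb21* and *Pcdhb22* share exon bases with another gene (455 bases), from 90.3% (*Pcdhb21*) to 100%. The annotated transcripts that run through the clusters and share their exons, *Gm42416*, *Gm37013*, *Gm37388* and *Gm38182*, had 0 counts in all 6 mice. Levels are therefore compared between genes as CPM per kilobase of exon not shared with another gene on that strand. Of all stretches of 50 bases in these exons, 0% to 29.2% per alpha gene, 0% to 12% per beta gene and 0% to 17.9% per gamma gene also occurred in the same direction in transcripts of another gene, so the split of reads between such genes is uncertain. The strand setting of the counting is not given in the sources used here, and without strand, reads from a gene and its antisense partner cannot be told apart. This touches *Pcdhgc3*, where 3380 exon bases are unshared on its own strand and 1821 on either strand, and *Pcdhga10*, where these numbers are 2613 and 0.

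The 3 clusters were used very unequally in SC-WAT. Gamma genes took 62.1% to 71.4% of all member counts in a mouse, beta genes 28.2% to 37.1% and alpha genes 0.306% to 0.936%. Per length, the gamma cluster stood at 1.15 to 1.67 CPM per kb, the beta cluster at 0.368 to 0.569 CPM per kb and the alpha cluster at 0.0111 to 0.0409 CPM per kb. These ranges over the 6 mice did not overlap between clusters. The number of members with enough counts to be tested followed it as well, with 22 of 22 gamma genes, 20 of 22 beta genes and 0 of 14 alpha genes.

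*Pcdhgc3*, a C-type gamma gene, was the most counted member in all 6 mice. It had 1296, 911 and 2207 counts in *Egr1*+/+ replicates 1 to 3 and 977, 976 and 1060 counts in *Egr1*-/- replicates 1 to 3. *Egr1*+/+ replicate 3 was the highest and the genotypes overlapped. By itself the gene took 23.3% to 32.2% of all member counts, and at 8.68 to 15.1 CPM per kb it ranked first of the 58 genes in all 6 mice, 5.22 to 8.84 times the second gene. Without it the gamma cluster stood at 0.726 to 0.964 CPM per kb, still above the beta cluster.

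The other C-type genes did not share this level. *Pcdhgc4* had 98, 45 and 150 counts in *Egr1*+/+ and 71, 58 and 66 counts in *Egr1*-/- mice, and *Pcdhgc5* had 85, 29 and 88 counts against 39, 64 and 44. On the CPM scale *Pcdhgc4* was highest in *Egr1*+/+ replicate 3 and *Pcdhgc5* in *Egr1*+/+ replicate 1, and in both the genotypes overlapped. *Pcdhgc4* ranged from 0.431 to 1.0 CPM per kb and *Pcdhgc5* from 0.210 to 0.537 CPM per kb, in or below the range of the A-type and B-type genes. The C-type alpha genes *Pcdhac1* and *Pcdhac2* averaged 0.0178 and 0.0482 CPM per kb over the 6 mice. None of the 50-base stretches of the 3 C-type gamma genes occurred in another gene in the same direction. Counting both directions, 58.1% of those of *Pcdhgc3* did, and 0% of those of *Pcdhgc4* and *Pcdhgc5*.

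**Figure D1:**
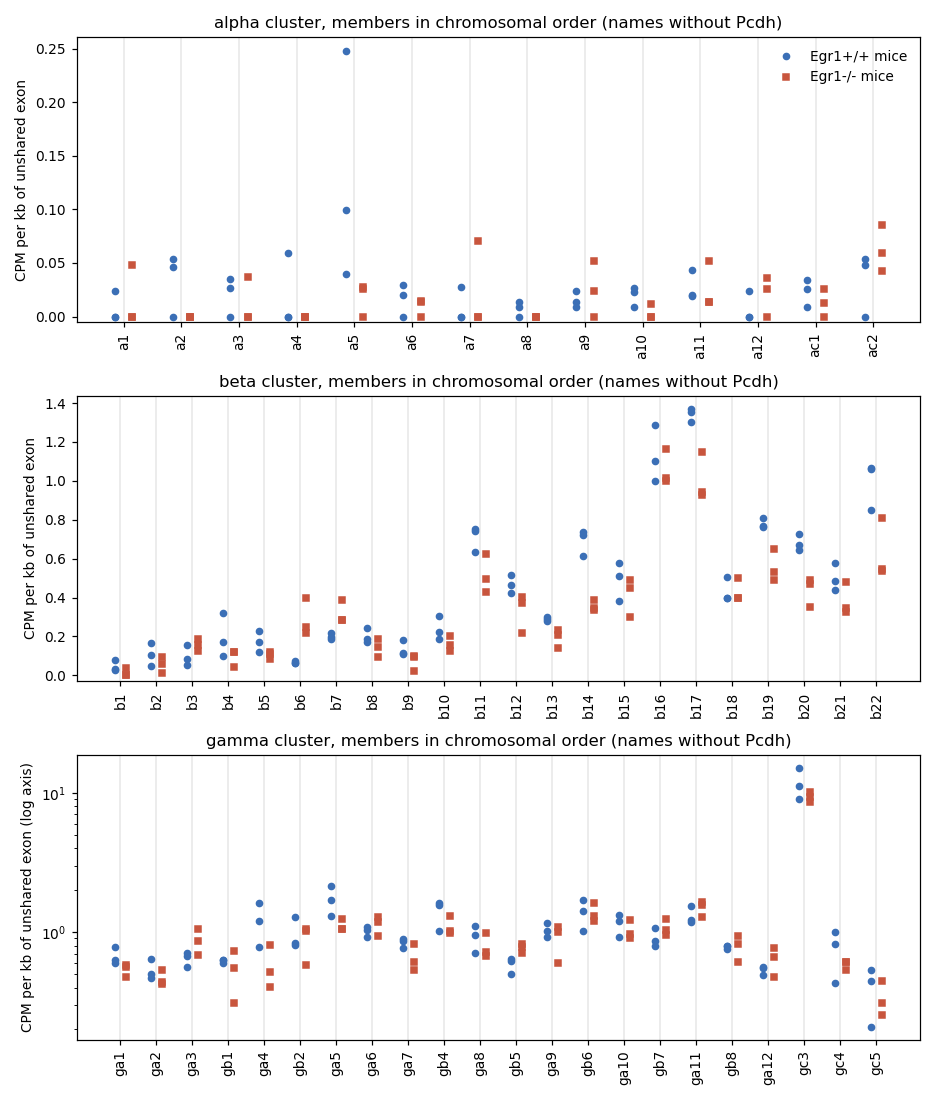
Level of each of the 58 clustered protocadherins in CPM per kb of unshared exon (vertical axis, linear for alpha and beta, log for gamma), with members in chromosomal order; circles are the 3 Egr1+/+ and squares the 3 Egr1-/- mice. Pcdhgc3 stands at 8.68 to 15.1 CPM per kb, far above the other gamma genes, and the beta genes from Pcdhb11 onward lie mostly above those before it.

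Among the A-type and B-type gamma genes the levels were even. The mean over the 6 mice ranged from 0.501 to 1.42 CPM per kb among the A-type and from 0.574 to 1.38 CPM per kb among the B-type genes. The most counted of them were *Pcdhgb4*, *Pcdhga11*, *Pcdhga5*, *Pcdhgb6* and *Pcdhga9*. *Pcdhgb4* had 198, 109 and 244 counts in *Egr1*+/+ and 121, 145 and 110 counts in *Egr1*-/- mice. *Pcdhga11* had 140, 93 and 138 counts against 144, 127 and 105. These genotypes overlapped. *Pcdhgb6* had 150, 79 and 157 counts in *Egr1*+/+ and 138, 96 and 103 counts in *Egr1*-/- mice, and *Pcdhga9* had 138, 96 and 153 against 125, 107 and 64, again with overlap.

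In the beta cluster the level tended to rise along the chromosome, with exceptions. Spearman's rho between a gene's place in the cluster and its mean CPM per kb was 0.85 over the 22 beta genes, against 0.15 over the 22 gamma genes and 0.36 over the 19 gamma genes that are not C-type. These points share the same 6 libraries, and the figures describe this order only. A boundary between *Pcdhb10* and *Pcdhb11* was drawn after the levels had been seen. The 10 genes before it had means of 0.0292 to 0.260 CPM per kb and the 12 genes beyond it 0.242 to 1.17 CPM per kb. These ranges overlapped, with *Pcdhb7* (0.260) above *Pcdhb13* (0.242). Beyond the boundary the level did not rise steadily, with *Pcdhb11* at 0.612, *Pcdhb17* at 1.17 and *Pcdhb21* at 0.442 CPM per kb.

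The most counted beta genes all lay beyond that boundary. *Pcdhb16* had 231, 157 and 248 counts in *Egr1*+/+ and 203, 162 and 164 counts in *Egr1*-/- mice, with overlap. *Pcdhb17* had 219, 182 and 272 counts against 178, 134 and 136, and *Pcdhb11* had 114, 84 and 141 against 73, 59 and 85. On the CPM scale the genotypes did not overlap for *Pcdhb17* and *Pcdhb11*, with the *Egr1*-/- mice lower, although the raw counts, which also reflect depth, overlapped for *Pcdhb11*. *Pcdhb16* and *Pcdhb17* were the leading beta genes per length in all 6 mice, with *Pcdhb17* first in the 3 *Egr1*+/+ and *Pcdhb16* first in the 3 *Egr1*-/- mice.

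The alpha genes were close to the limit of detection. Their totals over all 6 mice ranged from 1 count (*Pcdha4*) to 35 counts (*Pcdha5*), and none passed the filter on low counts. *Pcdha5* had 20, 7 and 4 counts in *Egr1*+/+ and 2, 0 and 2 in *Egr1*-/- mice. *Pcdhac2* had 5, 0 and 7 counts against 6, 8 and 4, and *Pcdha11* had 3, 6 and 4 against 8, 2 and 2. *Pcdha5* did not overlap between genotypes, but 20 of its 35 counts came from *Egr1*+/+ replicate 1. *Pcdha9* had 2, 1 and 1 counts in *Egr1*+/+ and 2, 4 and 0 in *Egr1*-/- mice. *Pcdhac1* had 3, 2 and 1 counts against 0, 1 and 2, and *Pcdha2* had 4, 4 and 0 against 0 in each *Egr1*-/- mouse. A difference in these genes was not detectable at this depth, where 3 counts, the limit that a count of 0 allows, correspond to 0.0696 to 0.0999 CPM per mouse, counting error only.

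Summed over a cluster, the beta genes stood lower in the 3 *Egr1*-/- mice without overlap, and the alpha and gamma genes overlapped between genotypes. The beta sum was 52.2, 45.8 and 47.3 CPM in *Egr1*+/+ replicates 1 to 3 and 40.0, 33.8 and 36.0 CPM in *Egr1*-/- replicates 1 to 3, or 48.4 ± 3.32 CPM against 36.6 ± 3.15 CPM (SD, n = 3 each). The ratio of these means was 0.755, or -0.40 on the log2 scale. The gamma sum was 98.8, 76.7 and 111 CPM against 84.7, 85.5 and 80.2 CPM, a log2 ratio of -0.20, with *Egr1*+/+ replicate 2 below and the other *Egr1*+/+ mice above the *Egr1*-/- mice. Without *Egr1*+/+ replicate 3 this ratio was -0.07. The alpha sum was 1.43, 0.899 and 0.487 CPM against 1.05, 0.516 and 0.388 CPM, a log2 ratio of -0.52. No test was made of these sums.

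**Figure D2:**
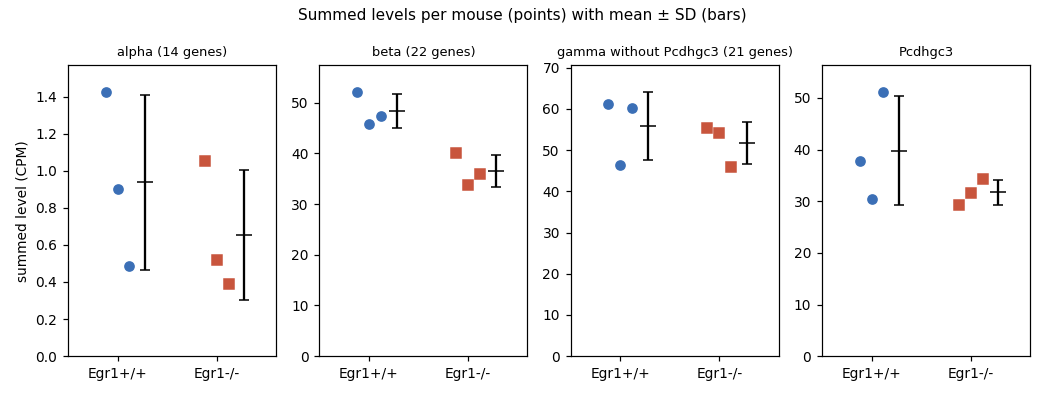
Summed level in CPM (vertical axis, from 0) of the alpha genes, the beta genes, the gamma genes without Pcdhgc3, and Pcdhgc3 alone; circles are Egr1+/+ and squares Egr1-/- mice, and the bars give the mean ± SD of 3 mice. The beta sums lie between 45.8 and 52.2 CPM in Egr1+/+ and between 33.8 and 40.0 CPM in Egr1-/- mice, while the other panels overlap.

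Most of the summed beta level, and of its difference, came from the more abundant genes. *Pcdhb11* to *Pcdhb22* summed to 43.6 ± 2.62 CPM in *Egr1*+/+ and 31.7 ± 2.82 CPM in *Egr1*-/- mice, a log2 ratio of -0.46 with no overlap. *Pcdhb1* to *Pcdhb10* summed to 4.89 ± 0.846 CPM against 4.88 ± 0.397 CPM, though single genes differed in opposite directions. Of the 8 tested genes of this second set, 5 were below 0 and 3 above 0, against 49.9% and 50.1% of all tested genes. Their median log2 fold change was -0.52, against -0.47 over *Pcdhb11* to *Pcdhb22*. Without overlap, 2 were lower and 2 higher, against 8.1% and 8.15% of all tested genes. All 12 genes from *Pcdhb11* to *Pcdhb22* had a log2 fold change below 0, and 8 of them were lower without overlap of the genotypes, against the same shares. The boundary between these sets was drawn from the levels of the same libraries, and nothing is read from these counts.

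None of the 42 tested members passed the edgeR quasi-likelihood test at an adjusted p of 0.05, where 0.017% of all tested genes were called higher and 0% lower. By unadjusted p under 0.05, 7 members were lower and 1 was higher in *Egr1*-/- mice, against 5.6% and 5.06% of all tested genes. DESeq2 called 1 member lower and 1 higher, against 1.24% and 0.811% of the 16275 genes to which it gave an adjusted p. Since the family was proposed from this contrast, nothing is read from these counts. A log2 fold change below 0 was found in 32 of 42 members, against 49.9% of all tested genes, and one above 0 in 10 members, against 50.1%. The median was -0.28 over the members and 0.0011 over all tested genes. The median was -0.49 over the 20 beta genes, of which 17 were below 0, and -0.20 over the 22 gamma genes, of which 15 were below 0. On the CPM scale, 12 members were lower without overlap of the genotypes, against 8.1% of all tested genes, and 3 were higher, against 8.15%. The lower ones were 10 beta genes and the gamma genes *Pcdhga1* and *Pcdhga5*, and the higher ones were *Pcdhb6*, *Pcdhb7* and *Pcdhgb5*.

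*Pcdhb14* and *Pcdhb6* had the lowest p among the members and differed in opposite directions. *Pcdhb14* (chr18:37447656-37456350, a single exon) had 215, 192 and 230 counts in *Egr1*+/+ replicates 1 to 3 and 101, 91 and 104 counts in *Egr1*-/- replicates 1 to 3. The genotypes were far apart, at 6.00 ± 0.575 CPM against 3.11 ± 0.223 CPM (SD, n = 3 each). Its log2 fold change was -0.94 (SE 0.172, edgeR quasi-likelihood test, adjusted p = 0.16), and DESeq2 gave an adjusted p of 0.00887.

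*Pcdhb6* (chr18:37333921-37337674), which belongs to the weakly expressed first genes of the beta cluster, had 8, 7 and 12 counts in *Egr1*+/+ and 27, 46 and 29 counts in *Egr1*-/- mice. All 3 *Egr1*-/- mice were higher, at 1.08 ± 0.358 CPM against 0.248 ± 0.0262 CPM. The log2 fold change was 2.09 (SE 0.416, edgeR quasi-likelihood test, adjusted p = 0.16), and DESeq2 gave an adjusted p of 0.0228. Of its 3680 stretches of 50 bases, 160 also occur in *Pcdhb8*, which had 29, 18 and 28 counts in *Egr1*+/+ and 17, 10 and 20 in *Egr1*-/- mice. The counts of both genes together were 37, 25 and 40 against 44, 56 and 49, a log2 ratio of 0.73 on the CPM scale, and their CPM did not overlap between genotypes.

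**Figure D3:**
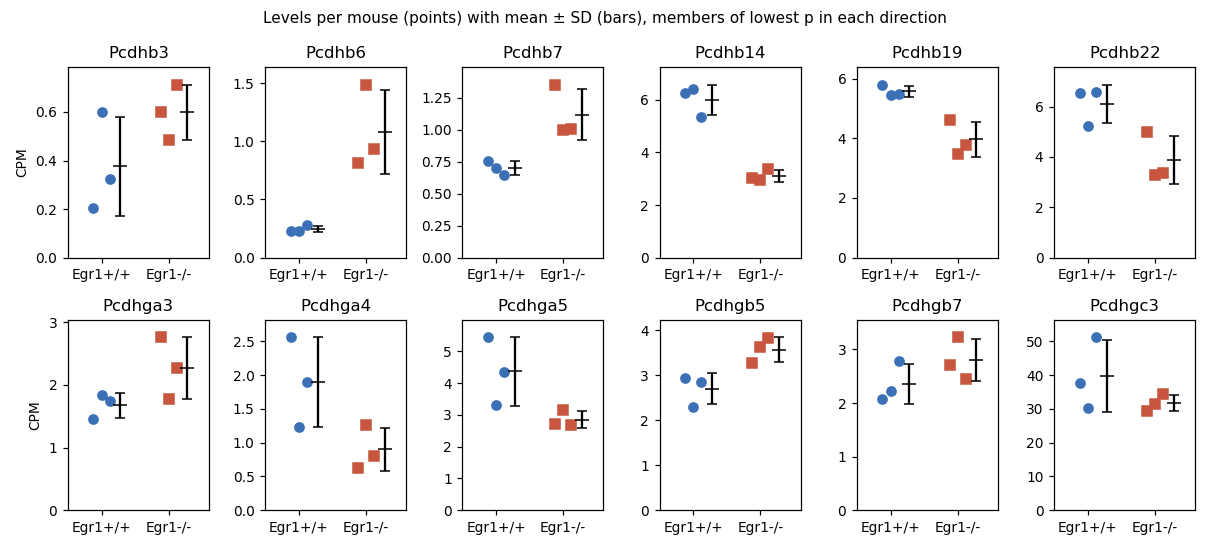
Level in CPM (vertical axes, from 0) of the tested members with the lowest p in each direction in the beta and gamma clusters; circles are Egr1+/+ and squares Egr1-/- mice, and the bars give the mean ± SD of 3 mice. Pcdhb14 is lower at 3.11 against 6.00 CPM and Pcdhb6 higher at 1.08 against 0.248 CPM in Egr1-/- mice, with no overlap, while Pcdhga4 and Pcdhgc3 overlap.

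Of the 5 beta genes lower at an unadjusted p under 0.05, *Pcdhb22* and *Pcdhb19* came next after *Pcdhb14*, and the others were *Pcdhb20* and *Pcdhb17*, with log2 fold changes of -0.63 and -0.41. *Pcdhb22* had 224, 157 and 283 counts in *Egr1*+/+ and 166, 102 and 104 in *Egr1*-/- mice, with a log2 fold change of -0.65 (SE 0.213). *Pcdhb19* had 199, 164 and 236 counts against 154, 108 and 117, with a log2 fold change of -0.49 (SE 0.175). In both, every *Egr1*-/- mouse was lower on the CPM scale. In the upward direction, *Pcdhb7*, next to *Pcdhb6* on the chromosome, had 26, 21 and 28 counts in *Egr1*+/+ and 45, 31 and 31 in *Egr1*-/- mice, which did not overlap, and its log2 fold change was 0.67 (SE 0.320). *Pcdhb3* had 7, 18 and 14 counts against 20, 15 and 22, a log2 fold change of 0.68 (SE 0.486), and its genotypes overlapped.

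In the gamma cluster the differences were mixed. *Pcdhga4* had 88, 37 and 82 counts in *Egr1*+/+ and 21, 39 and 25 counts in *Egr1*-/- mice. Its log2 fold change was -1.08 (SE 0.379). It was the lowest log2 fold change of the members, yet *Egr1*+/+ replicate 2 and *Egr1*-/- replicate 2 overlapped. *Pcdhga5* had 187, 99 and 188 counts against 90, 98 and 83, a log2 fold change of -0.62 (SE 0.226) without overlap on the CPM scale. *Pcdhgb5* had 101, 69 and 123 counts in *Egr1*+/+ and 109, 112 and 118 in *Egr1*-/- mice, and its log2 fold change was 0.40 (SE 0.199). On the CPM scale all 3 *Egr1*-/- mice were higher. *Pcdhga3* had 50, 55 and 75 counts against 92, 55 and 70, and *Pcdhgb7* had 71, 67 and 120 against 90, 100 and 76, with log2 fold changes of 0.44 (SE 0.258) and 0.24 (SE 0.227). Both overlapped. *Pcdhgc3* had a log2 fold change of -0.33 (SE 0.180). The B-type genes together took 13.7%, 13.5% and 13.9% of all member counts in *Egr1*+/+ and 15.6%, 18.1% and 15.1% in *Egr1*-/- mice, while their sum was 19.9 ± 2.88 CPM against 19.6 ± 2.04 CPM.

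The members of lowest p in each direction were also summed with the member that shares most 50-base stretches with each, as for *Pcdhb6*. *Pcdhgc3* was left out, as it shares no such stretch in the same direction. No such sum was made for *Pcdhb17* and *Pcdhb20* as members. Of the genes with a log2 fold change above 0, *Pcdhb7* with *Pcdhb9* gave a log2 ratio of 0.26 and overlapped between genotypes, *Pcdhb3* with *Pcdhb9* gave 0.05, *Pcdhgb5* with *Pcdhgb4* gave -0.04 and *Pcdhgb7* with *Pcdhgb6* gave 0.10. *Pcdhb7* and *Pcdhgb5* were higher without overlap by themselves but not when summed with these partners. Of the genes below 0, *Pcdhb14* with *Pcdhb18* gave -0.63, *Pcdhb22* with *Pcdhb19* -0.57 and *Pcdhb19* with *Pcdhb20* -0.53, all without overlap. *Pcdhga5* with *Pcdhga8* gave -0.47 with overlap, and *Pcdhga4* with *Pcdhga3* gave -0.17. The stretches shared with the partner ranged from 15 of 2496 (*Pcdhga5*) to 189 of 3452 (*Pcdhb7*). Each sum, that of *Pcdhb6* included, also holds the partner's own level, and can move away from the member's without any shared read. How reads were split between these genes is therefore not shown by the sums.

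The genes around the members were read for comparison. Between *Egr1* and the clusters 34 genes were tested, with a median log2 fold change of -0.08 and 22 below 0. Of them 6 were lower and 2 higher without overlap of the genotypes. Beyond the clusters, 17 genes over the same distance had a median of -0.04, with 9 below 0. Of them 1 was lower and 2 were higher without overlap. As far on the other side of *Egr1*, 24 genes had a median of -0.07, with 18 below 0. Of them 1 was lower and 0 higher without overlap. Over all tested genes 49.9% were below 0, and 8.1% were lower and 8.15% higher without overlap. Inside the clusters 5 genes that are no members were tested and all had log2 fold changes below 0. The non-coding RNA *3222401L13Rik*, which ends just before *Pcdhga1* on the same strand, had 86, 58 and 92 counts in *Egr1*+/+ and 38, 31 and 32 in *Egr1*-/- mice, and its log2 fold change was -1.05 (SE 0.254). *BC037039*, annotated on the opposite strand across the start of *Pcdhgc3*, had 32, 30 and 42 counts against 7, 18 and 21, a log2 fold change of -0.98 (SE 0.449), and its reads depend on the strand setting as those of *Pcdhgc3* do. Both were lower in every *Egr1*-/- mouse. *Gm10544* had a log2 fold change of -0.56 and overlapped between genotypes. *Taf7*, which encodes a subunit of the general transcription factor TFIID, and *Slc25a2*, a mitochondrial carrier gene, lie between the beta and gamma clusters and had log2 fold changes of -0.02 and -0.08.

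**Figure D4:**
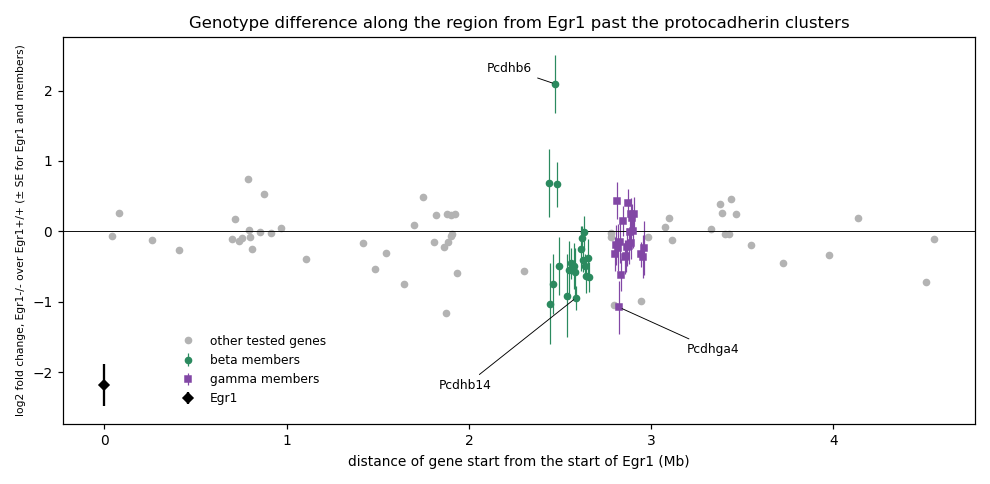
Log2 fold change of Egr1-/- over Egr1+/+ mice (vertical axis) against the distance of a gene's start from the start of Egr1 in Mb (horizontal axis), for tested genes from Egr1 onward; bars on Egr1 and on members are 1 SE of the fit. Egr1 stands at -2.19, Pcdhb6 at 2.09 and Pcdhb14 at -0.94, and most beta members lie below 0.

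The tested genes nearest to the clusters overlapped between genotypes, except *Hars2* and *Zmat2*. On the *Egr1* side they were *Wdr55*, *Dnd1*, *Hars*, *Hars2* and *Zmat2*, with log2 fold changes of -0.06, 0.23, -0.04, 0.25 and -0.60, and on the far side *Diaph1*, *Hdac3*, *Fchsd1*, *Arap3* and the non-clustered protocadherin gene *Pcdh1*, with -0.08, 0.06, 0.20, -0.12 and 0.03. *Zmat2* had 1136, 709 and 1072 counts in *Egr1*+/+ and 482, 575 and 644 in *Egr1*-/- mice, without overlap. Without overlap, *Hars2* was higher and *Zmat2* lower, against 8.15% and 8.1% of all tested genes.

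Listed regulators and partners of the clustered protocadherins, and related adhesion genes, gave no call by the edgeR quasi-likelihood test. That test called 3 of all 17667 genes. Of the regulators of the clusters, among them CTCF, cohesin and the DNA methylation enzymes, 18 of 27 were above 0 with a median log2 fold change of 0.04, and the lowest p were those of *Tet3* (0.32), *Tet1* (-0.28) and *Trim28* (0.19). Of the listed protein partners of the clustered protocadherins, kinases and others, 12 of 15 were below 0 with a median of -0.11, led by *Nlgn2* (-0.35), *Fyn* (-0.22) and *Ptk2* (-0.16). Of the non-clustered protocadherins 8 of 11 tested were below 0 with a median of -0.29, led by *Pcdh20* (-0.92), *Pcdh7* (-0.39) and *Pcdh19* (-0.33). Of 8 tested classical cadherins 5 were below 0, and *Cdh11* (-0.66) and *Cdh2* (0.72) lay furthest apart.

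Markers of several cell types that a fat pad can hold moved with the genotype beside the beta sum. All 14 stromal progenitor and fibroblast markers were below 0, with a median log2 fold change of -0.67 and a summed level of 6683 to 7675 CPM in *Egr1*+/+ and 3954 to 5397 CPM in *Egr1*-/- mice. Of 14 Schwann cell markers 12 were below 0, with a median of -0.46 and sums of 457 to 595 CPM against 326 to 410 CPM. All 9 tested markers of beige or brown adipocytes were above 0, with sums of 571 to 722 CPM against 992 to 1657 CPM. Of 12 macrophage markers 11 were below 0, with a median of -0.39. Their sums of 670 to 841 CPM against 588 to 779 CPM overlapped, and *Ptprc*, a marker of leukocytes in general, made up 245 to 495 CPM of them. Of 12 mural markers 10 were below 0, with a median of -0.25 and sums of 730 to 915 CPM against 571 to 806 CPM, which overlapped. The part of these cell types in the differences of the protocadherins was not tested. Sympathetic neuron markers summed to 4.62 to 8.46 CPM in *Egr1*+/+ and 5.21 to 7.53 CPM in *Egr1*-/- mice, and *Th*, which encodes the rate-limiting enzyme of noradrenaline synthesis, had 0 counts in every mouse. Of 12 endothelial markers 9 were above 0 with a median of 0.10, and of 11 tested mammary epithelial markers 6 were below 0 with a median of -0.14, and the sums of both lists overlapped between genotypes. Of 12 skeletal muscle markers 8 were below 0 with a median of -0.74, and their sum varied from 284 to 6060 CPM over the 6 mice. Of 10 adipocyte markers 7 were below 0 with a median of -0.17. Their sums of 8535 to 9612 CPM in *Egr1*+/+ and 7154 to 8448 CPM in *Egr1*-/- mice did not overlap. By unadjusted edgeR p under 0.05, 13 stromal progenitor and fibroblast, 7 Schwann cell, 5 macrophage, 3 adipocyte, 2 mural and 1 endothelial markers were lower. Higher were 9 beige or brown adipocyte, 1 mural and 1 adipocyte markers. Of all tested genes, 5.6% were lower and 5.06% higher by this measure.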

How the data were processed

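Total RNA of 6 fat pads was depleted of ribosomal RNA and sequenced from strand-specific libraries. The authors aligned the reads to GRCm38 with TopHat2 and Bowtie2, assigned them to GENCODE M8 genes with featureCounts, and deposited raw counts per gene without normalization. The strand and multimapping settings of the counting are not given in the sources used here. Genes were named through GENCODE M21 of the same build, which matched 46488 of 47069 identifiers.

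Counts were tested with edgeR 4.0.16 in R 4.3.3, with TMM factors, filterByExpr, the quasi-likelihood test and Benjamini-Hochberg adjustment over all 17667 genes tested, at a threshold of 0.05 and without a covariate. Each SE was obtained by dividing the absolute log2 fold change by the root of its F statistic. CPM are relative to the TMM-scaled library. Alternatives were other scalings and filters, a replicate block, DESeq2 1.42.0, limma-voom (limma 3.58.1) and leaving out each mouse. Separate mice served as replicates, and litter was not in the model.

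Members, lists and the naming rule were chosen with earlier results of these data known. Counts per mouse are given for the 3 C-type gamma genes, for the 6 members of each cluster with the highest mean CPM, for up to 3 members of each cluster and direction with the lowest p, and for members named beside a result of these. Other genes named are *Egr1*, the tested genes inside the clusters, the 5 tested genes nearest each end, and the 3 with the lowest p of each pathway list. With *Th*, *Ptprc*, *Cdh2* and *Pcdhb8*, single values were chosen after they had been seen.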

Additional observations from a re-analysis of the deposited data

How the results depend on the processing

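The beta sum stayed lower in *Egr1*-/- mice under every scaling and without each mouse, at -0.47 to -0.35 on the log2 scale, and reached -0.56 with total counts, which moved the median of all genes to -0.15. Leaving out each mouse gave -0.33 to -0.07 for the gamma sum and -1.05 to -0.09 for the alpha sum. Without *Egr1*+/+ replicate 3 or *Egr1*-/- replicate 3 the gamma median was -0.06 or -0.05. The calls depended on the tool and filter. Over all genes there were 3 calls, against 0 with upper-quartile scaling, 79 with total counts (12 higher, 67 lower), 552 without a filter, 334 with DESeq2, 1 with limma-voom and 0 to 59 without each mouse, the 59 without *Egr1*-/- replicate 1 and 0 without each other mouse. Members went from 0 calls of 42 to 2 of 58 without a filter, against 552 of 38261 genes. With DESeq2 they went to 2 of 41, against 334 of 16275 genes. The 2 were *Pcdhb6* and *Pcdhb14* each time, and members stayed at 0 without each mouse. The cause was not tested. Of 21 named tested members, 18 kept their sign in every alternative. Without each mouse *Pcdhga9* ranged from -0.38 to 0.0073, above 0 without *Egr1*-/- replicate 3, and *Pcdhgc5* from -0.54 to 0.015, above 0 without *Egr1*+/+ replicate 1. *Pcdhgb6*, at -0.01, ranged from -0.18 to 0.15, above 0 without *Egr1*+/+ replicate 1 or 3 or *Egr1*-/- replicate 2 or 3. Same-numbered mice did not deviate together (r = -0.0888, 0.106 and -0.126), and the main test did not pair them. Across genotypes 1 pair of mice were littermates, so litter does not pair them all. With 3 mice per genotype these values cannot exclude a pairing by preparation, nor show which replicates were littermates. The replicate block gave 0 calls over all genes, 1909 at an unadjusted p under 0.05, and 0.0064 for *Pcdhgb6*. The alpha genes had too few counts at this depth to be tested.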
